A study of Mus musculus with 2 samples.

Results

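The clustered histone genes were taken as all gene symbols that start with Hist1h, Hist2h, Hist3h or Hist4h and that had at least 20 UMIs (unique molecular identifiers, each standing for 1 captured RNA molecule) over both libraries. By this rule, 57 of the 70 annotated copies, of 55450 genes in all, were kept. They were measured by 3′ single-cell RNA sequencing of EMT6 tumors. EMT6 is a mouse mammary carcinoma line, which the labels call TNBC (triple-negative breast cancer), grown here under the skin of BALB/c mice after injection of 200000 cells. The Olaparib + LLY-283 group received LLY-283, an inhibitor of the arginine methyltransferase PRMT5, at 50 mg/kg on 3 days followed by 4 days without, and the PARP inhibitor Olaparib at 50 mg/kg daily. The Combo group received the same 2 drugs and a PD-1 antibody at 200 µg every 3 days. Tumors of 3 mice were pooled into 1 library per group, no untreated tumor is among the samples, and the group, the mice and the library cannot be told apart. All differences below are therefore given without a test, with 95% intervals that cover counting error only.

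Replication-dependent histone genes encode the bulk of the 4 core histones, H2A, H2B, H3 and H4, and of the linker histone H1, which packs DNA between nucleosomes. They lie in clusters, are transcribed mainly while DNA is being copied, and most of their mRNAs carry no poly(A) tail but end shortly after a conserved stem-loop that is bound by the protein SLBP. Some copies can also make a longer, polyadenylated mRNA, which cells that have stopped dividing are known to use. The labels give polyA RNA as the molecule of these libraries. Priming on poly(A) can take up such longer transcripts, or runs of A inside an RNA, so which copies were captured is part of the measurement.

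The sequences that bear on this capture are printed here from the GENCODE M21 transcripts of mouse build GRCm38 (mm10). Hist1h2ap, the copy with the most UMIs, and Hist1h2ao have a run of A directly before the stem-loop, shown in capitals:
Hist1h2ap: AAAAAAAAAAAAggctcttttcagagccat
Hist1h2ao: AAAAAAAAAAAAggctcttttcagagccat
In the next set the capitals mark the stem-loop itself, after the 8 bases before it. It shows a form that H1, H2A, H2B and H3 copies share, the H4 forms of Hist1h4d and Hist1h4i, and a further form in Hist1h3c and Hist1h2bb. Some other H4 copies have forms that are not printed:
Hist1h2ae: aaaacaaaGGCTCTTTTCAGAGCC
Hist1h1e: aacccaaaGGCTCTTTTCAGAGCC
Hist1h1c: atccaaaaGGCTCTTTTCAGAGCC
Hist1h4d: aaaccaaaGGCCCTTTTCAGGGCC
Hist1h4i: tacttaaaGGCCCTTTTTAGGGCC
Hist1h3c: taaaaaaaGGCTCTTTTAAGAGCC
Hist1h2bb: aacccaaaGGCTCTTTTAAGAGCC

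From here the 2 libraries are called OL (Olaparib + LLY-283) and Combo, and paired values are given in that order. The deposited matrices held 16115 OL cells with 147214934 UMIs and 7542 Combo cells with 162522700 UMIs, and the median cell had 7376 and 3613.5 UMIs. Cells with at least 20% mitochondrial UMIs were left out, 86 and 1586 in the 2 libraries. The libraries shared 39 barcodes. Marker UMIs sorted the other cells into tumor-like (9912 and 2451 cells), macrophage-like (895 and 576), neutrophil-like (705 and 1330), fibroblast-like (268 and 82) and smaller classes, with 4014 and 1334 cells in none. Tumor-like cells had medians of 9712.5 and 49010 UMIs, and 7 of their 10 epithelial markers were highest in that class in each library. The limits were set after seeing the data. Of the kept cells of any class, 2910 and 1108 had tumor markers within 1.5-fold of the tumor limit, on either side.

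A few copies held nearly all of the histone signal. The 70 copies summed to 273064 UMIs, of which Hist1h2ap, an H2A gene at chr13:21833026-21833507, had 134329 UMIs (49.2%). Hist1h1b, which encodes the linker histone H1.5 at chr13:21779883-21780625, had 48477 (17.8%). The H2A gene Hist1h2ae at chr13:23570517-23571220 followed with 20631 (7.56%). Together the first 2 copies held 66.9% of the UMIs, the first 6 held 86.9% and the first 10 held 91.8%. The remaining 7 of these 10 were the linker histone genes Hist1h1e (15369), Hist1h1c (8470) and Hist1h1d (3442), the H2B gene Hist1h2bc (10079), the H4 genes Hist1h4d (3786) and Hist1h4i (2808), and the H2A gene Hist2h2ac (3385). The median member had 375 UMIs, 16 copies reached 1000, and 9 members had under 100.

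Among the 13 copies under the minimum, Hist2h3c1, Hist1h2bq and Hist1h2ba had 0 UMIs, which allows up to 3 for each over both libraries, and 10 had 1 to 19. Hist1h4f, with 28 UMIs, was the lowest member, and Hist1h4b and Hist3h2ba, with 19 each, lay just outside. A copy at 0 here had no UMI assigned to it, which says nothing of whether its mRNA was made. For Hist2h3c1 and Hist1h2bq every stretch of 90 bases is also found in another gene. Their RNA could therefore not be told apart, and their counts say nothing of capture either. In Hist1h2ba 70.2% of these stretches are found in no other gene.

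By role, the 20 H2A copies (16 members) held 60.5% of the UMIs and the 6 H1 copies (5 members) held 28.2%. Much less came from H2B (19 copies, 15 members, 5.56%), H4 (13 copies, 11 members, 3.78%) and H3 (12 copies, 10 members, 1.97%). Nucleosomes hold equal numbers of the 4 core histones, so these shares do not follow the make-up of the protein particle. The copies with the most UMIs of the last roles were Hist1h2bc for H2B, Hist1h4d for H4 and Hist1h3c, with 1093 UMIs, for H3. By position, 56 copies on chromosome 13 held 96.3% of the UMIs, 10 on chromosome 3 held 2.99%, 3 on chromosome 11 held 0.370% and Hist4h4 on chromosome 6, an H4 gene, had 868 UMIs.

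**Figure D1:**
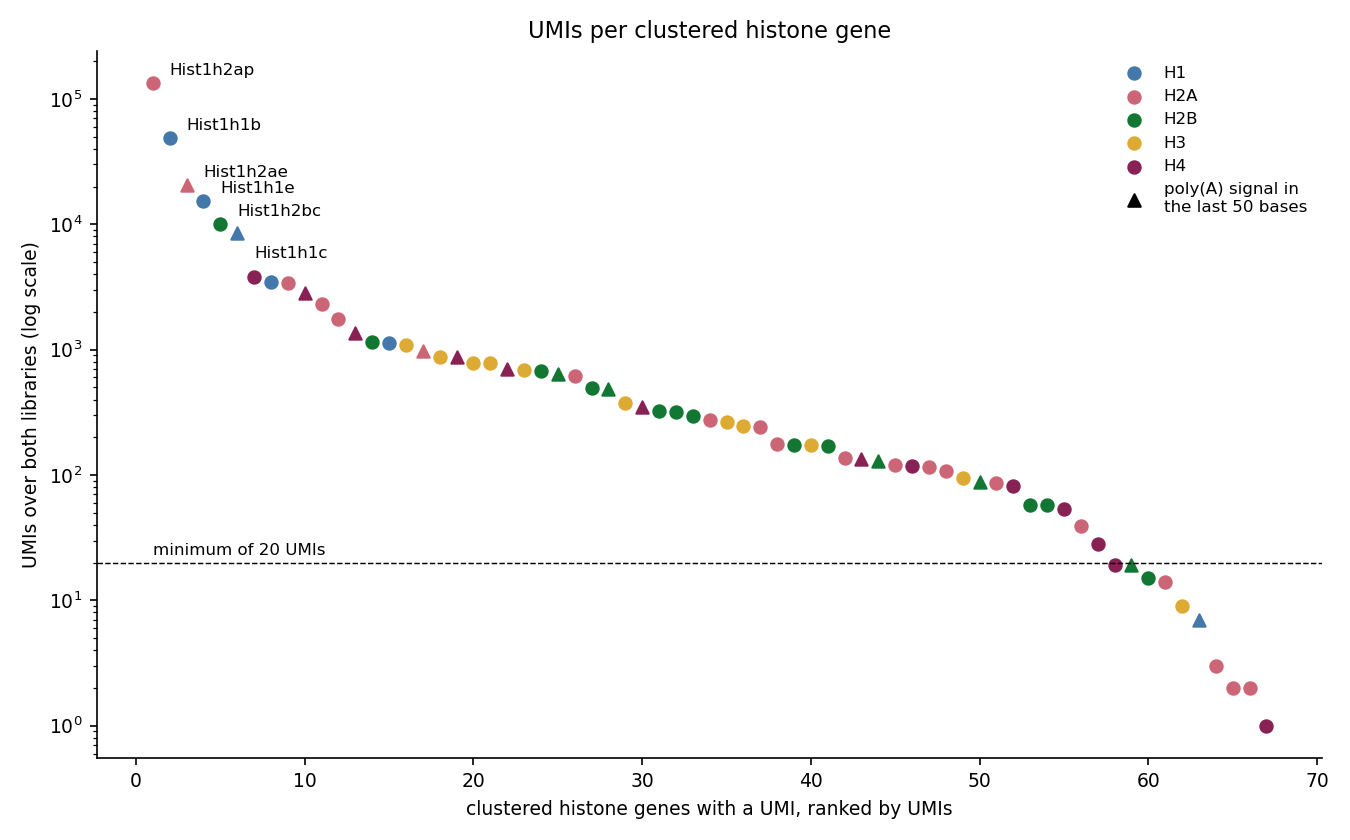
UMIs over both libraries, on a log axis, of each clustered histone copy with a UMI, ranked from most to fewest and coloured by role; 1 point is 1 copy, the dashed line is the minimum of 20 UMIs, and triangles mark copies with AATAAA or ATTAAA in the last 50 bases of an annotated transcript. Hist1h2ap stands highest at 134329 UMIs, and copies with and without the signal overlap in H1, H2A, H2B and H4.

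Annotated structure was set beside the counts. The letters of the stem-loop (GGNNNTTNNNANNNCC, with the first 6 bases pairing with the last 6, read on the transcript strand) were found in 46 of the 70 copies, against 0.337% of all genes. A single form was present in 26 copies of 4 roles, and the form printed for Hist1h4d in 7 copies, all H4. Copies with the letters had a median of 360.5 UMIs and those without 154. Only annotated bases were searched, and some copies without the letters have short transcripts, such as 381 bases for Hist1h2bl and 312 for Hist1h4k. Letters or signals past an annotated end would be missed. The signal AATAAA or ATTAAA, which directs cleavage and polyadenylation, lay in the last 50 bases of 17 copies, which had a median of 483 UMIs against 242 for the others. These 17 copies held 13.8% of the UMIs.

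The A-rich copies held more, most of it in Hist1h2ap, which alone held 49.2% of the UMIs. A run of at least 8 A was annotated in 7 copies, all of them members, with a median of 3442 UMIs against 177 for the rest, and these 7 held 62.2% of the UMIs. Counts differed widely among the 3 copies with 12 or more A in a row: Hist1h2ap had 134329 UMIs, the H2A gene Hist1h2ac had 611 and Hist1h2ao had 39. The run ends 19, 1187 and 47 bases before their annotated ends. Hist1h2ap and Hist1h2ao also share sequence, as described below, so these 3 counts do not isolate the run. The 18 copies whose annotated transcript runs at least 300 bases past the stem-loop had a median of 740.5 UMIs against 171.5. All of these are descriptions over copies that also share sequence.

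Shared sequence limits what a count per copy means. Over 50% of the 90-base windows were identical to another gene's transcript, read on either strand, in 32 copies. Their median was 111.5 UMIs, against 655.5 for the other 38, and 6 copies had no window of their own. A gene that overlaps on the other strand also counts as sharing, so these numbers are not for the same strand alone. Hist2h2bb and Hist2h3b, without a window of their own, are covered in full by such a gene. Hist1h2ap had 30 of its own among 393 windows (7.63%), all starting at positions 1 to 30, while Hist1h2ao had 28 of 391, all starting at positions 364 to 391. The level of Hist1h2ap against its H2A relatives is therefore uncertain. Hist1h1b shared no 90-base window with another gene over its whole annotated 743 bases. Of the windows, 94.3% were unique in Hist1h1c, 73.9% in Hist1h2bc, 73.8% in Hist1h1e and 68.1% in Hist1h2ae. In addition, exons of 6 members (Hist1h1e, Hist1h2be, Hist1h2ac, Hist2h2aa1, Hist2h2bb and Hist3h2a) overlap exons of another gene on the same strand. Exons of 18 members overlap a gene on the other strand, and use of strand in counting was not given in the sources used here. Hist1h2al, with 1750 UMIs, is annotated as a processed pseudogene.

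H2A and H2B genes often lie head to head with a short gap between their starts. Of 15 divergent pairs under 1000 bases apart (gaps of 172 to 659 bases, 14 of them H2A with H2B), 10 had both genes among the members. In 4 of these the partners differed by over 10-fold in UMIs. Hist1h2ap had 278 times the UMIs of Hist1h2br (483) across 235 bases, a ratio that is uncertain since 0.171% of the 90-base windows of Hist1h2br and 7.63% of those of Hist1h2ap are unique. Hist1h2ae had 64.9 times those of Hist1h2bg (318) across 175 bases. Hist2h2ac had 26.0 times those of Hist2h2be (130), and the H2B gene Hist1h2bc 16.5 times those of Hist1h2ac (611). At the other end, Hist1h2an (115) and Hist1h2bp (88) differed by 1.31-fold. The H2A gene was therefore the higher one in 3 of the 4 pairs, and the H2B gene in the fourth.

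Promoter letters were read from RefSeq windows of 250 bases before to 50 after the start (GRCm38.p6), on both strands, for the 51 of 57 members that matched. CCAAT, the box bound by NF-Y, was in 44 of them (86.3%, against 37.9% of 27025 promoters), namely in all 5 of H1, 15 of H2A, 13 of H2B and 8 of H3 and in 3 of 10 of H4. TATAAA was in 29 (56.9%, against 14.2%). The octamer ATTTGCAT, known from H2B promoters and bound by OCT1, was in 10 (19.6%, against 1.75%), of which 5 were H2A and 5 H2B. Divergent pairs share part of these windows, so their matches are not separate. The window of Hist1h2ae runs across a gap of 175 bases into its divergent partner Hist1h2bg, so motifs in it cannot be assigned to either gene. The 250 bases before Hist1h1b and Hist1h2ae are shown because these genes were among the most cycle-linked members below, with the 3 motifs in capitals on either strand. The window of Hist1h1b is chr13:21780626-21780875 and that of Hist1h2ae is chr13:23571221-23571470, both read on the minus strand:
Hist1h1b: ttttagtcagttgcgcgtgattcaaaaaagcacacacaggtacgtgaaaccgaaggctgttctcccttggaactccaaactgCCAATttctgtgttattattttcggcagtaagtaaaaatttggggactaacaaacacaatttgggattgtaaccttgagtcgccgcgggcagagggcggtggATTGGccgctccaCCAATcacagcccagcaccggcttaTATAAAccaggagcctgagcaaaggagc
Hist1h2ae: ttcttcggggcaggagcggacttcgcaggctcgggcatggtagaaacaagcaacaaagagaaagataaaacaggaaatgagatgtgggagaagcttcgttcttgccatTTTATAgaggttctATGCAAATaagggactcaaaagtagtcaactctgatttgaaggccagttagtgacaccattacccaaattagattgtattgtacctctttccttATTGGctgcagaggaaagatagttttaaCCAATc

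Levels by cell cycle were compared in tumor-like cells. Cells with at least 5000 UMIs (8417 and 2339, with 1495 and 112 left out as too shallow) were thinned to 5000 UMIs and classed by the UMIs of 40 S-phase and 47 G2/M genes, lists that hold no histone gene. Low-cycle cells had under 6 UMIs of each list, S cells at least 12 of the S list and under 20 of the G2/M list, S and G2/M cells at least 12 and 20, and G2/M cells under 6 and at least 20. They made up 18.1%, 16.4%, 14.4% and 4.80% of the OL cells and 22.7%, 16.3%, 14.7% and 4.28% of the Combo cells. The others lay between. In 752 and 160 cells the S list was within 1 UMI of its upper limit, and in 257 and 64 cells the G2/M list was.

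Histone RNA was lowest in low-cycle cells and highest in cells high for both lists. Summed member levels, in CPM (UMIs per 1000000 UMIs of all genes in the class, counted per molecule and not per length), were 190 [183-197] in low-cycle, 817 in S, 1738 in S and G2/M and 648 in G2/M cells of the OL library. The same classes of the Combo library were at 182 [177-188], 1166, 2863 and 647 CPM. S cells were thus 4.30- and 6.39-fold above low-cycle cells, S and G2/M cells 9.14- and 15.7-fold, and G2/M cells 3.41- and 3.55-fold. Without Hist1h2ap, which holds about as many UMIs as all other copies together, the folds were 2.42 and 3.22 in S cells and 5.24 and 8.14 in S and G2/M cells. S and G2/M cells held 38.3% and 48.9% of the histone UMIs of all classed cells.

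Depth was made equal to count cells. In cells thinned to 5000 UMIs, Hist1h2ap was seen in 13.5% and 14.7% of low-cycle cells, 53.5% and 53.1% of S cells, 82.3% and 84.5% of S and G2/M cells, and 50% and 49% of G2/M cells. The unthinned shares in low-cycle cells were 23.9% and 63.7%, which follow the depth of the 2 libraries. The thinned shares were close between libraries in every class, while the median thinned count in S and G2/M cells was 4 UMIs against 7.

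Cells high for the S list were not uniformly high for histones. When they were split by G2/M UMIs, a split chosen after seeing the data, those under 6 (213 and 73 cells) had 206 [189-224] and 218 [203-234] CPM, near the low-cycle level. Those from 6 to 19 (1169 and 309 cells) had 915 and 1351 CPM. Hist1h2ap went from 63.3 to 483 to 889 CPM over the 3 bins of rising G2/M UMIs in the OL library, and from 87.7 to 779 to 1597 CPM in the Combo library. The S-list limit alone did not separate the histone-high cells, and each library gave the same order.

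**Figure D2:**
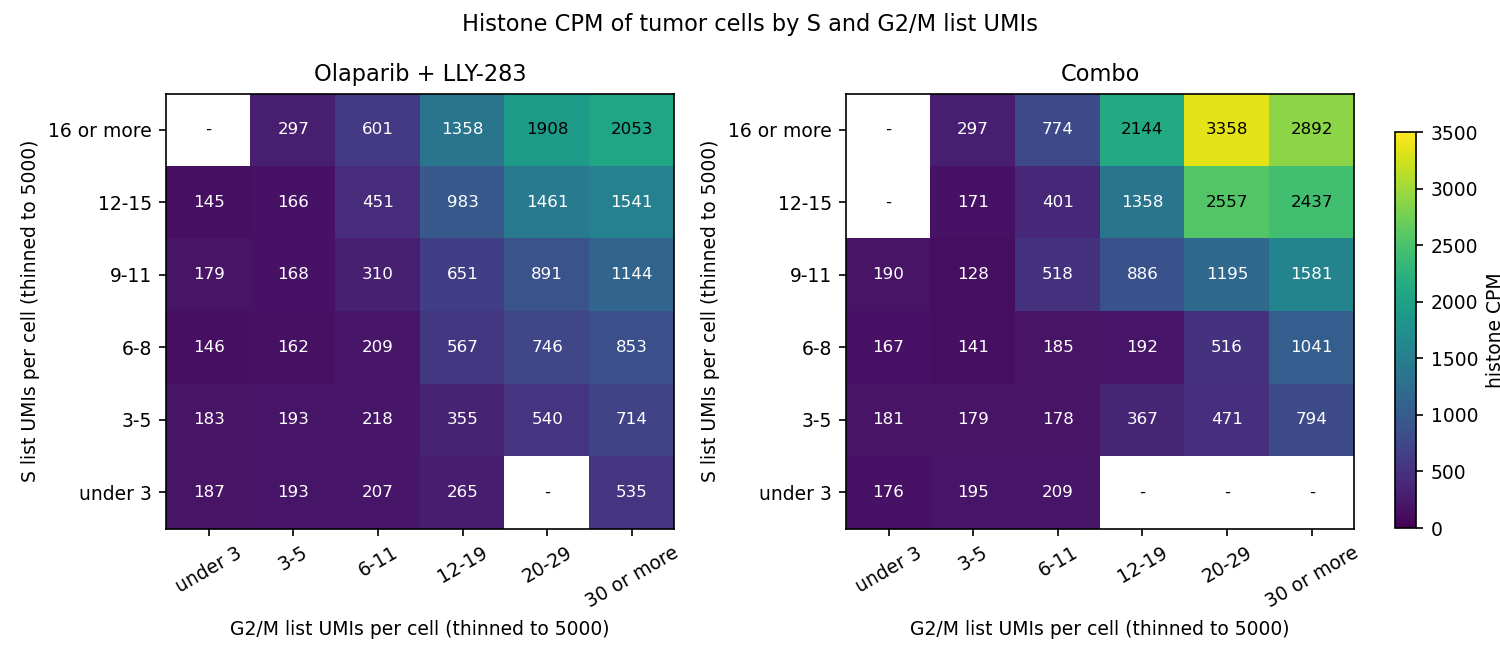
Summed CPM of the 57 members in tumor-like cells by bins of S-list UMIs (one axis) and G2/M-list UMIs (other axis) in each library; a dash marks a bin of under 20 cells. At under 3 G2/M UMIs the bins of 20 cells or more stay between 145 and 190 CPM. None of these bins has 16 or more S-list UMIs in the OL library or 12 or more in the Combo library. The highest bins, 2053 and 3358 CPM, are high for both lists.

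Of 31 members with enough UMIs for the comparison in both libraries (at least 20 UMIs over the 2 classes and at least 5 expected in each at equal CPM), 17 were over 2-fold higher in S than in low-cycle cells in both, against 3.55% of all genes outside the 2 lists. They were 4 of H1 (Hist1h1a, Hist1h1b, Hist1h1d, Hist1h1e), 4 of H2A (Hist1h2ap, Hist1h2ae, Hist1h2ac, Hist2h2ac), Hist1h2bb and Hist1h2bm of H2B, 6 of H3 (Hist1h3a to Hist1h3f) and Hist1h4d. The stem-loop letters were annotated in 15 of the 17, against 25 of the 31 compared, and a polyadenylation signal near the end in 1 of the 17, against 10 of the 31. Both were read from annotated bases only. Hist1h2bc and Hist3h2a were over 2-fold lower in both, against 0.859% of genes. In S and G2/M cells 30 of 40 members were higher (4.45% of genes) and 1 was lower (0.896%), and in G2/M cells 10 of 21 were higher (2.75%) and 1 was lower (0.721%). Hist1h2bc was the lower one each time. Members that only reached the minimum through their high class had to differ, so these counts describe the members that could be compared and not all 57. Over the 32 and 37 members compared in each library, the median log2 difference of S from low-cycle cells was 1.26 and 1.52, against 0.05 and -0.003 for all genes.

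Hist1h1b and Hist1h2ap had the steepest profiles among the members with at least 200 UMIs in low-cycle and S cells. Hist1h1b was at 10.2 CPM in low-cycle, 165 in S, 379 in S and G2/M and 97.7 in G2/M cells of the OL library, and at 8.99, 234, 570 and 79.9 CPM in the Combo library, so S and G2/M cells were 37.1- and 63.4-fold above low-cycle cells. Hist1h2ap was at 28.2, 425, 889 and 297 CPM and at 26.9, 666, 1597 and 318 CPM, 31.6- and 59.4-fold. Hist1h2ae went from 7.94 to 58.6 CPM between low-cycle and S cells and to 143 in S and G2/M cells, and from 7.88 to 70.8 and 216 CPM in the Combo library. These 3 copies, the ones with the most UMIs, all kept the same order of classes in both libraries.

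The other linker histone genes had other profiles. Hist1h1a, which encodes H1.1 and had only 3 and 4 UMIs in low-cycle cells, was at 0.195, 2.79 and 8.23 CPM in low-cycle, S, and S and G2/M cells of the OL library and at 0.178, 6.02 and 15.98 CPM in the Combo library. Hist1h1d, which encodes H1.3, was at 2.02, 10.1 and 24.0 CPM and at 1.91, 11.3 and 35.3 CPM in the same classes. Hist1h1e, which encodes H1.4, was at 9.04, 43.2 and 94.5 CPM and at 12.6, 59.2 and 157 CPM. Hist1h1c, which encodes H1.2, did not follow them: it was at 27.5, 15.3 and 25.2 CPM and at 30.8, 13.6 and 33.4 CPM, lowest in S cells in both libraries. Among H1 genes with at least 200 UMIs in low-cycle and S cells, the S level ran from 16.1 and 26.1 times the low-cycle level (Hist1h1b) to below it (Hist1h1c). Hist1h1a, with 196 such UMIs, had log2 ratios of 3.84 and 5.08, against 4.01 and 4.70 for Hist1h1b.

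A further set of copies had S-cell levels that were below the low-cycle level or whose interval of the fold included equality. Hist1h2bc, an H2B gene with 2 annotated exons over chr13:23684199-23692908 and no stem-loop letters in its transcript, was at 59.8, 20.8, 13.8 and 26.6 CPM in low-cycle, S, S and G2/M, and G2/M cells of the OL library and at 45.0, 15.0, 9.72 and 21.3 CPM in the Combo library. It was the highest member in low-cycle cells in both, and its S and G2/M level was 0.230 and 0.216 times that of low-cycle cells. Hist3h2a, the H2A gene of the small chromosome 11 cluster, was at 3.38 and 1.27 CPM in low-cycle and S cells and at 5.12 and 1.02 CPM. Its exons overlap Trim17 on the same strand, so its counts are uncertain. Hist1h2al was at 4.81 and 3.06 CPM, and at 6.45 and 2.43 CPM. The H4 gene Hist1h4i was at 7.35, 7.01 and 10.8 CPM and at 5.92, 6.59 and 10.5 CPM in low-cycle, S, and S and G2/M cells. Its S level was 0.954-fold [0.737-1.24] and 1.11-fold [0.876-1.42] that of low-cycle cells, and its S and G2/M level was higher, 1.47-fold [1.16-1.87] and 1.78-fold [1.43-2.22]. Among these 5 lowest-ranked of the members with 200 UMIs (Hist1h2bc, Hist1h1c, Hist3h2a, Hist1h2al and Hist1h4i), 3 have AATAAA or ATTAAA in the last 50 bases, and among the 5 highest (Hist1h1b, Hist1h2ap, Hist1h2ae, Hist1h1d and Hist1h1e) 1 has it, Hist1h2ae.

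**Figure D3:**
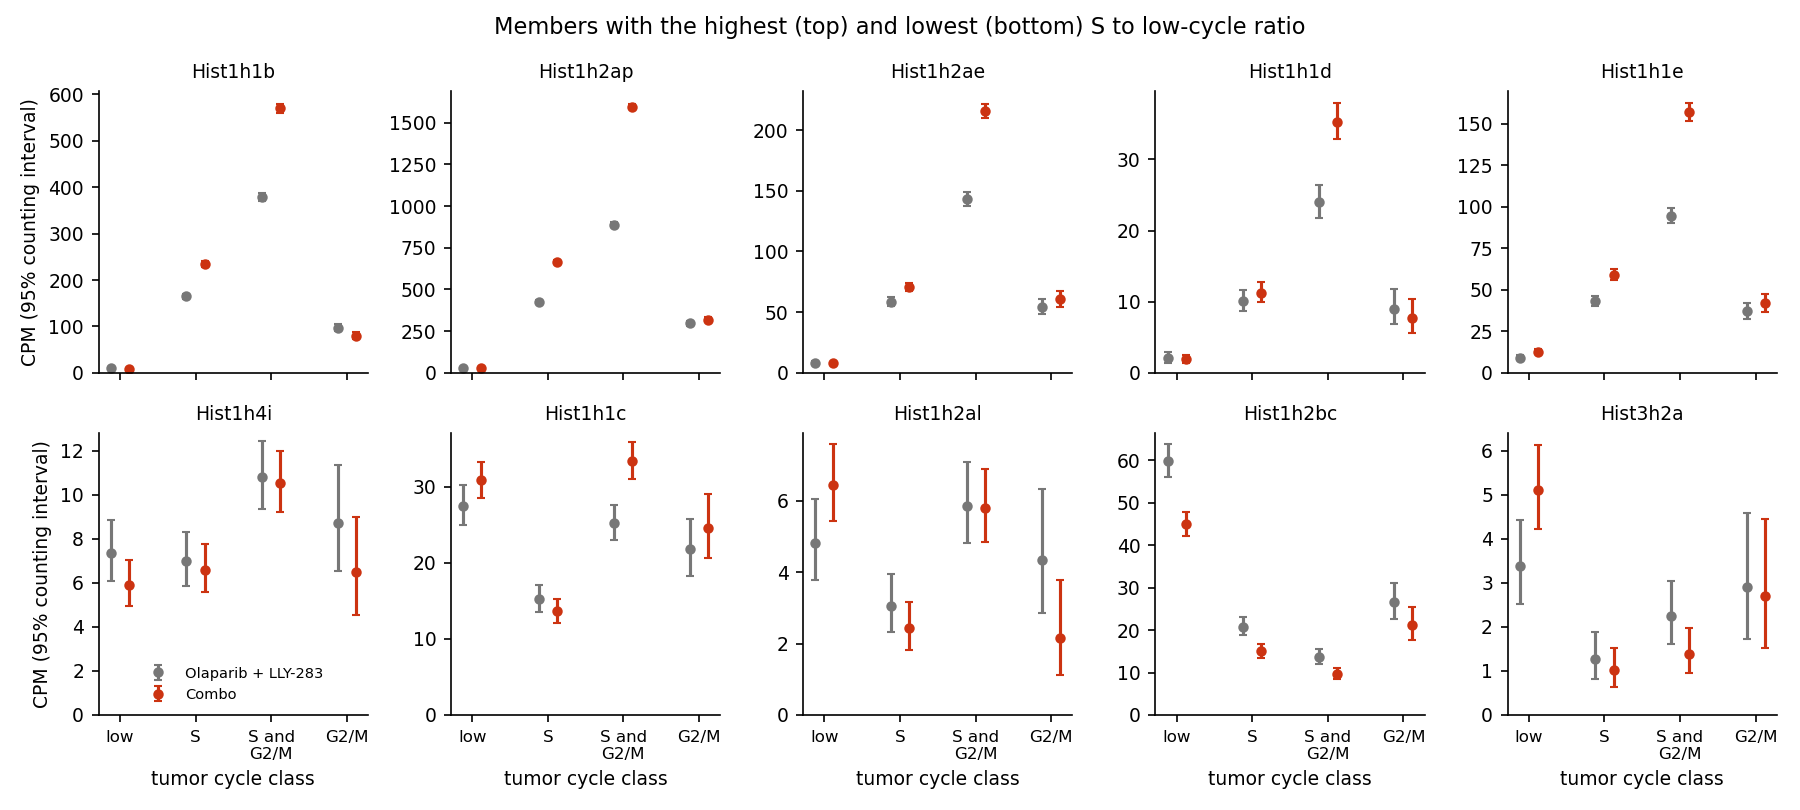
CPM of the 5 members with the highest (top row) and the 5 with the lowest (bottom row) S to low-cycle ratio, by cell cycle class of tumor-like cells in both libraries, with 95% Poisson intervals. The upper 5 peak in the S and G2/M class, while Hist1h2bc is highest in low-cycle cells at 59.8 and 45.0 CPM.

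Of 46 members with at least 20 UMIs over the 4 classes in each library, 34 were highest in S and G2/M cells in both libraries, against 11.5% of genes outside the 2 lists. As above, members that only reached this minimum through their high class had to peak there. The count describes the members that could be compared. Hist1h2bc and Hist3h2a, 2 of the 46, were highest in low-cycle cells in both, against 18.3% of genes. The H2B sum did not follow the others, but most of it in low-cycle cells was Hist1h2bc. The sum was 66.4, 32.4 and 41.2 CPM in low-cycle, S, and S and G2/M cells of the OL library, and 50.1, 30.5 and 51.3 CPM in the Combo library. Of it, Hist1h2bc made up 59.8 and 45.0 CPM in low-cycle cells and 13.8 and 9.72 CPM in S and G2/M cells. Among the 30 members counted above as over 2-fold higher in S and G2/M cells, 7 were H2B. H3 went from 3.71 to 14.8 to 30.7 CPM and from 5.38 to 19.9 to 50.0 CPM, and H4 from 18.7 to 25.2 to 46.8 CPM and from 17.0 to 27.9 to 62.3 CPM.

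Genes that handle histones and their mRNAs were read in the same cells. Of 12 histone mRNA factors, 2 were over 2-fold higher in S than in low-cycle cells in both libraries: Slbp, the stem-loop binding protein, at 80.5 and 198 CPM and at 70.7 and 175 CPM, and Casp8ap2, a histone locus body protein, at 19.2 and 59.8 CPM and at 18.2 and 60.1 CPM. Of 14 chaperones, 5 were higher (Nasp, Asf1b, Chaf1a, Chaf1b and Hat1), with Asf1b at 2.54 and 26.4 CPM and at 1.69 and 30.8 CPM. Of 11 variant histones, most of whose mRNAs are polyadenylated, 3 were higher in S and 5 in S and G2/M cells. H2afz, encoding H2A.Z, had 3.72 and 4.03 times its low-cycle level in S and G2/M cells, and Cenpa, the centromeric H3, had 12.2 and 16.8 times in G2/M cells. The same 3.55% and 4.45% of all genes apply to these counts.

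Summed levels were lower in macrophage-like, neutrophil-like and fibroblast-like than in tumor-like cells, but not those of every copy. The summed level was 733 [728-738] and 1052 [1046-1058] CPM in tumor-like, 579 [553-607] and 730 [711-749] in macrophage-like, 476 [427-530] and 625 [596-654] in neutrophil-like and 363 [333-396] and 759 [717-802] in fibroblast-like cells. Small classes gave 712 and 857 CPM in osteoclast-like (46 and 19 cells), 896 [693-1139] and 419 [340-510] in T and NK-like (62 and 47 cells) and 453 and 568 in myogenic-like cells (26 and 49 cells). In all of the larger classes the Combo library was higher. The order of tumor-like above macrophage-like cells rested on Hist1h2ap: without it, macrophage-like cells were at 1.10 [1.04-1.17] and 1.00 [0.968-1.03] times the tumor-like level. Neutrophil-like cells were then at 0.959 [0.846-1.08] and 0.935 [0.885-0.986] times that level. Fibroblast-like cells stayed lower without it, at 265 and 376 CPM against 382 and 497 CPM in tumor-like cells.

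Tumor markers were detected in the other classes too, and the levels are given with them. Cells that were also over the tumor limit were kept in these classes. Neutrophils are known to have left the cell cycle, yet neutrophil-like cells had Hist1h2ap at 31.2% and 28.9% of its tumor-like level. Their summed tumor markers stood at 60.6% and 27.9% and their S list at 52.6% and 35.9%. In macrophage-like cells Hist1h2ap was at 45.0% and 41.9% of the tumor-like level, the tumor markers at 39.0% and 17.6% and the S list at 58.9% and 47.5%. After thinning each cell to 500 UMIs, Hist1h2ap was seen in 10.6% and 13.8% of tumor-like, 4.36% and 6.42% of macrophage-like and 5.39% and 5.79% of neutrophil-like cells. Unthinned, the shares were 50.4% and 76.1%, 16.5% and 41.7%, and 7.94% and 19.02%. The part of free or carried-over tumor RNA in these levels was not tested. No expression is read from the thinned macrophage-like share of either library. In the OL library that share (4.36% [3.12-5.91]) was not above the neutrophil-like one (5.39% [3.84-7.32]). In the Combo library the interval of the macrophage-like share (6.42% [4.56-8.75]) included the neutrophil-like share (5.79%).

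Several copies stood higher in macrophage-like than in tumor-like cells. In macrophage-like cells 5 of 24 comparable members were over 2-fold above tumor-like cells in both libraries (9.67% of all genes), namely Hist3h2a, Hist1h4i, Hist1h2bc, Hist1h1c and Hist1h2al. Hist1h2bc was at 78.6 and 77.9 CPM (2.52- and 3.24-fold), Hist1h1c at 64.9 and 56.8 CPM (2.90- and 2.23-fold) and Hist1h4i at 34.9 and 29.2 CPM (4.22- and 4.30-fold). The values of these 5 copies by cycle class are given above, and both comparisons use the tumor-like cells. Hist1h2ap at 158 and 233 CPM, Hist1h1b at 65.6 and 91.3 CPM and Hist4h4 were over 2-fold lower (8.98% of genes). Hist4h4 rested on 4 and 10 UMIs, at 1.31 [0.356-3.34] and 1.29 [0.620-2.38] CPM. Its tumor-like levels were 2.85 and 2.73 CPM, the first of which lies within the OL interval. Hist1h2ae, at 45.0 and 75.2 CPM, was 0.787 and 0.999 times the tumor-like level.

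In neutrophil-like cells the leading members were Hist1h2ap (110 and 161 CPM), Hist1h1b (53.4 and 68.3) and Hist1h2bc (52.0 and 70.3). Of 10 comparable members 1, Hist1h4i, was over 2-fold higher (23.9 and 38.6 CPM, 5.96% of genes) and 3 were lower, Hist1h2ap, Hist1h1b and Hist1h1d (11% of genes). Hist1h2be, an H2B gene of the chromosome 13 cluster, was at 19.7 [10.7-33.0] and 41.0 [34.0-49.1] CPM against 1.30 and 1.62 in tumor-like cells, 15.1 and 25.3 times, from 14 and 119 UMIs. It had too few expected UMIs in the first library to be counted above and was named after its values were seen. Exons of Hist1h2be overlap Hist1h1e over 496 bases on the same strand. Hist1h2al was at 19.7 and 40.0 CPM, 4.66 and 9.22 times its tumor-like level.

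Osteoclast-like cells had Hist1h2bc as their leading member, at 252 [188-330] and 181 [144-225] CPM, 8.07 and 7.53 times the tumor-like level. It was the only 1 of 5 comparable members over 2-fold higher (5% of genes), and Hist1h2ap was the only one lower (14.3%). Fibroblast-like cells had 0 of 13 higher (6.75%), and Hist1h1b and Hist1h1d lower (4.28%). Hist1h2ap stood there at 98.5 CPM in the OL and 383 CPM in the Combo library, a gap between 268 and 82 cells whose tumor markers stood at 33.5% and 27.5% of the tumor-like level. T and NK-like cells had 0 of 2 on either side (1.87% and 14.9%), and myogenic-like cells 0 of 1 higher (4.1%) and 1 of 1, Hist1h2ap, lower (27%). Hist1h2bc led the myogenic-like cells at 170 and 114 CPM, from 6 and 9 UMIs.

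**Figure D4:**
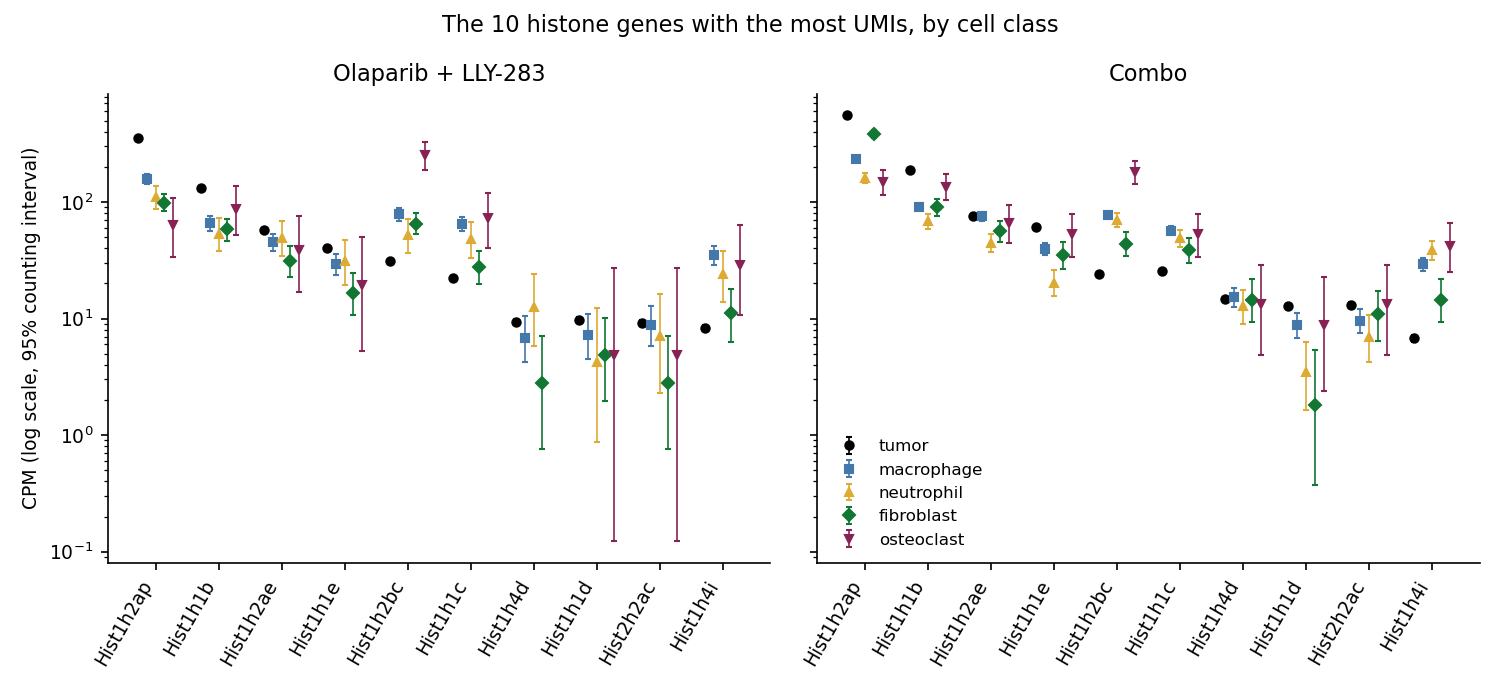
CPM, on a log axis, of the 10 members with the most UMIs in tumor-like, macrophage-like, neutrophil-like, fibroblast-like and osteoclast-like cells of both libraries, with 95% Poisson intervals and no marker at 0 UMIs. Hist1h2ap is highest in tumor-like cells, and Hist1h2bc is highest in osteoclast-like cells at 252 and 181 CPM.

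Between libraries, histone RNA in tumor-like cells was higher in the Combo library. The summed level was 1.44-fold [1.42-1.45] higher, or 1.30-fold [1.28-1.32] without Hist1h2ap. By role, H1 was at 207 and 294 CPM (1.42-fold), H2A at 436 and 664 CPM (1.52-fold), H3 at 14.3 and 20.0 CPM (1.40-fold) and H4 at 29.2 and 32.9 CPM (1.13-fold). H2B was at 45.5 and 40.9 CPM (0.901-fold [0.866-0.936]), but its lower sum came from Hist1h2bc, and the other 14 H2B members together were at 14.3 and 16.9 CPM (1.18-fold [1.11-1.26]). The S list was at 1980 and 2094 CPM and the G2/M list at 4033 and 3964 CPM in the same cells, and tumor-like cells of the Combo library were deeper. The part of treatment, mice and library preparation in this difference cannot be told apart.

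Of the 57 members, 41 were higher in the Combo library, against 59.3% of 17174 genes, with a median log2 difference of 0.27 against 0.058 for all genes. Over 2-fold higher were 4 (2.69% of genes) and over 2-fold lower 0 (1.52%). The 4 were the H3 gene Hist1h3b at 1.497 and 3.497 CPM (2.34-fold [1.95-2.80]), the linker histone gene Hist1h1a at 2.50 and 5.03 CPM (2.02-fold [1.75-2.33]), and the sparse H2A genes Hist1h2ag (0.198 and 0.412 CPM, from 23 and 51 UMIs) and Hist1h2an. Among copies with at least 200 UMIs, Hist1h3f (1.64-fold), Hist1h2ak (1.62-fold) and Hist1h2bh (1.60-fold) followed. Hist1h2ap was at 351 and 555 CPM (1.58-fold [1.56-1.60]) and Hist1h1b at 133 and 190 CPM (1.43-fold).

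At the low end, Hist2h4, an H4 gene, was at 2.48 and 1.83 CPM (0.737-fold [0.616-0.880]). Hist1h2bc was at 31.2 and 24.0 CPM (0.771-fold [0.734-0.809]) and Hist1h4i at 8.27 and 6.80 CPM (0.822-fold [0.749-0.903]). Hist1h2bg (0.773-fold) and Hist1h2br (0.858-fold) had intervals that include equality. Counting intervals were apart for 22 members higher in the Combo library (26.1% of genes) and 3 lower (13.8% of genes), and overlapped for 32. The 3 lower ones were Hist2h4, Hist1h2bc and Hist1h4i.

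The difference between libraries depended on the cell cycle class. Histone RNA was 0.959-fold [0.915-1.006] in low-cycle and 0.998-fold [0.954-1.04] in G2/M cells of the Combo against the OL library, both including equality. It was 1.43-fold [1.40-1.46] in S and 1.65-fold [1.62-1.67] in S and G2/M cells. In S and G2/M cells all roles were higher, H1 by 1.53-fold, H2A by 1.73-fold, H2B by 1.24-fold, H3 by 1.63-fold and H4 by 1.33-fold. Hist1h2bc was lower in each of these classes, at 0.752-fold in low-cycle, 0.720-fold in S and 0.706-fold in S and G2/M cells. Cells between the classes, 46.3% and 42.0% of those classed, were at 1.16-fold [1.14-1.17]. Under the alternatives, S cells ran from 1.27- to 1.62-fold and S and G2/M cells from 1.41- to 1.66-fold. Stricter cycle limits reversed their order, with S at 1.62-fold [1.59-1.64] and S and G2/M at 1.41-fold [1.37-1.45]. The low-cycle interval fell below equality with stricter markers (0.861-fold [0.809-0.916]) and after thinning to 2000 UMIs (0.934-fold [0.894-0.975]). It included equality under the others. With the main settings, the intervals of S and of S and G2/M cells do not overlap those of low-cycle and G2/M cells. With 1 library per group that is a statement on these libraries alone.

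**Figure D5:**
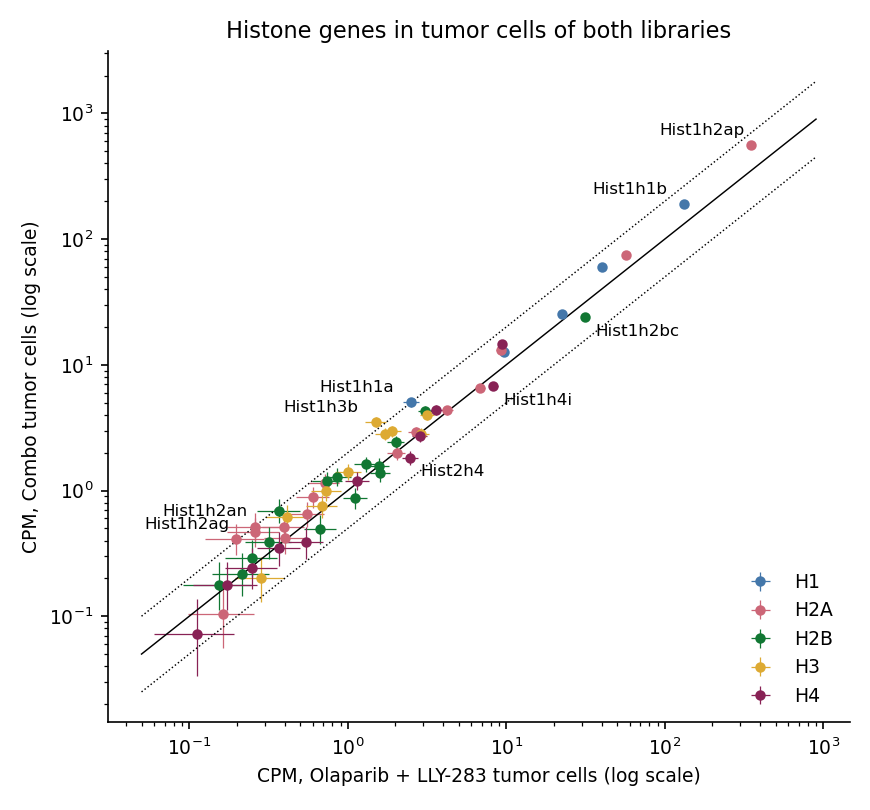
CPM of each member in tumor-like cells of the OL library (horizontal) against the Combo library (vertical), both on log axes; the solid line is equality and the dotted lines are 2-fold. Hist1h2ap and Hist1h1b lie above equality at 555 and 190 CPM, Hist1h2bc below it at 24.0, and 4 sparse or mid-level members lie past the upper 2-fold line.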

How the data were processed

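Tumors of 3 mice per group were dissociated, freed of red and dead cells and sequenced as 1 library of 10x Genomics 3′ RNA per group. The authors aligned and counted the reads with Cell Ranger on mm10, and the labels also name bcl2fastq 5.0.1 and Seurat 4.1.0. The deposited matrices hold raw UMI counts per gene and cell barcode, with no normalization, totalling 147214934 and 162522700. Whether the counting used strand or introns is not given in the sources used here. All 55450 gene IDs matched GENCODE M21 (GRCm38), which gave coordinates and transcripts. Promoters came from RefSeq (GRCm38.p6).

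Barcodes were kept if 200 genes or more were seen and mitochondrial UMIs were below 20%. A cell was assigned to a class when it had at least 2 UMIs of that class's markers and these reached a limit per 10000 UMIs (4 for tumor, 10 for dendritic, 20 for macrophage, endothelial, B and T and NK, 60 for osteoclast, 100 for neutrophil and for fibroblast, 200 for myogenic). Cells over the limit of more than 1 class other than tumor (47 and 30) were left out. A cell over the tumor limit and over 1 other limit was kept in that other class. Tumor-like cells also had to be below the other limits divided by 4. Classes under 50 cells over both libraries were not described. No doublet caller was run, and removing the 10% of cells with the most UMIs was an alternative. The members, marker lists, limits and other lists were chosen with earlier results of these data known. Shared transcript sequence was found as identical windows of 90 bases, read on either strand.

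UMIs were summed per class and library and given as CPM with exact Poisson intervals, shares with Clopper-Pearson intervals and folds with exact binomial intervals, all at 95% and covering counting error only. Over 2-fold higher or lower was counted with at least 20 UMIs over both classes. A gene at 0 was set to 3 counts. Named copies were the 10 with the most UMIs, the 5 highest and 5 lowest (200 UMIs or more) between libraries and between S and low-cycle cells, the leading copy of each role and the 2 leading copies of each class. Others were named after their values were seen. With 1 library per group no test was made. Seurat was not used here. Calculations used matplotlib 3.10.9, pandas 2.3.3, scipy 1.17.1 and numpy 2.4.6 under Python 3.11.15, and the scripts were tested on simulated data.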

Additional observations from a re-analysis of the deposited data

Results flagged for a closer look

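Cells left out for at least 20% mitochondrial UMIs, which enter no comparison, held histone RNA above the limit that a count of 0 allows. Any group of cells with more than 3 member UMIs passes this limit. The 86 such cells of the OL library (median of 652 UMIs) had 19 member UMIs, or 317 CPM [191-494], against a limit of 50.0 CPM. The 1586 such cells of the Combo library (median of 746 UMIs) had 815, or 585 CPM [545-626], against a limit of 2.15 CPM. In the latter Hist1h2ap stood at 192 CPM, Hist1h1b at 90.4 CPM and Hist1h2bc at 24.4 CPM. Both summed levels were below those of tumor-like cells, 733 and 1052 CPM.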

How the results depend on the processing

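Of 97 values recomputed under alternatives, 53 stayed within their counting interval or within 1.5 times a count, 42 moved further and 2 crossed equality. The fold between libraries (1.44) was 1.33 without the 10% of cells with the most UMIs, 1.48 with stricter markers, 1.38 with median-of-ratios scaling and 1.30 without Hist1h2ap, an alternative chosen after seeing the data. The 4 members over 2-fold higher became 2 with stricter markers, with median-of-ratios scaling and with a minimum of 100 UMIs, and 1 member was lower with stricter markers. S over low-cycle cells (4.30 and 6.39) gave 3.88 and 5.48 without the cells with the most UMIs, 4.03 and 6.81 with stricter markers, 6.57 and 11.2 with stricter limits, and 2.42 and 3.22 without Hist1h2ap. It gave 3.67 in the OL library after thinning to 2000 UMIs and 6.02 in the Combo library at 10% mitochondrial UMIs. S and G2/M over low-cycle cells (9.14 and 15.7) gave 7.77 and 13.8 after thinning to 2000 UMIs and 5.24 and 8.14 without Hist1h2ap. It was 8.02 with stricter markers and 10.8 with stricter limits in the first library, and 14.9 without the cells with the most UMIs in the second. The 17 members higher in S cells ranged from 14 to 19. Macrophage-like over tumor-like cells (0.791 and 0.694) gave 1.10 [1.04-1.17], a reversal, and 1.00 [0.968-1.03], equal within counting error, without Hist1h2ap. It was 0.744 with stricter markers in the first library and 0.586 without the cells with the most UMIs in the second. Neutrophil-like over tumor-like cells (0.650 and 0.594) was 0.742 and 0.676 without the cells with the most UMIs, 0.959 and 0.935 without Hist1h2ap, and 0.554 with stricter markers in the second library. The cause was not tested, except that leaving out Hist1h2ap removes 49.2% of the UMIs. No paired analysis was possible because each group is 1 library. Depth limits the copies under 100 UMIs and the classes under 100 cells.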
